A study of Homo sapiens with 6 samples.

Results

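The genes described here are 40 glycolysis and hypoxia-response genes in MDA-MB-231, an established human line of triple-negative breast cancer, taken by symbol from a table of 63241 genes. They fall into 5 roles: 4 glucose and lactate transporters, 17 glycolytic enzymes, 3 PFKFB enzymes that set the pace of glycolysis, 4 genes of the HIF transcription factor system (HIF1A, EPAS1, EGLN1 and EGLN3) and 12 other HIF targets. RNA-seq was done on 6 libraries, 3 from non-treated control cells and 3 from cells exposed to 40 µM of ArA (arachidonic acid in the title) and cultured for 24 h. No library was labelled as hypoxic, no vehicle was named for the control cells, and all libraries came from this single line. Levels are in TPM, a length-corrected share of a library's transcripts that sums to the same total in each library. All 40 genes were found, and 39 reached the mean of 1 TPM required for the test, as did 12999 genes in all. SLC16A1, which codes for the lactate carrier MCT1, was left out with control values of 0.45, 0.35 and 0.38 TPM and ArA values of 0.35, 0.42 and 0.62 TPM. TPM keep no read totals, so depth is unknown. Nothing in the labels says whether replicates were separate cultures, so the p-values cover no more than library-to-library spread, possibly a technical one.

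Glycolysis breaks glucose down to pyruvate in the cytosol, and cells that make much lactate export it through proton-coupled carriers. Under low oxygen the prolyl hydroxylases of the EGLN family stop marking the alpha subunits of HIF for destruction, and the stabilised factor switches on glycolytic enzymes, glucose transporters and genes for blood vessel growth, pH control, mitophagy and collagen maturation. HIF alpha subunits are controlled largely as proteins, so the transcripts of HIF1A and EPAS1 do not report the factor's activity. Many tumour lines, MDA-MB-231 among them, run glycolysis at a high rate with oxygen present.

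The 7 mesenchymal marker genes checked, such as VIM and CD44, all had means of at least 42.1 TPM. The hormone receptor genes ESR1 and PGR and the epithelial cadherin gene CDH1 stayed below a mean of 1 TPM, and so did the 6 blood cell markers. KRT8 and KRT18, keratins of luminal cells that had been listed as low, averaged 390 and 293 TPM. Of the same list, ERBB2 averaged 37.4 TPM, and EPCAM, GATA3 and FOXA1 5.34, 3.54 and 3.35 TPM. Of 8 fibroblast and muscle markers, 3 reached 1 TPM, with COL1A1 at 6.38, PDGFRB at 4.48 and ACTA2 at 2.60 TPM. The share of mitochondrially encoded transcripts was 31.6 to 32.9% in control and 26.9 to 32.1% in ArA libraries. Because TPM are shares, every other gene is read against that, and the median log2 difference (ArA minus control) of all tested genes was 0.06. Control replicate 2 and ArA replicate 1 stood apart from the other 4 libraries: over 12637 genes their deviation from the gene mean had a correlation with transcript GC content of 0.45 and 0.41, against -0.40 to -0.10 in the others.

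No glycolysis or hypoxia gene passed the test across all genes. In limma on log2(TPM + 1), 0 of 39 had an adjusted p under 0.05 (background 0.0231%, or 3 of 12999 genes), and all 39 adjusted p-values were 0.999. At an unadjusted p under 0.05 there were 6 members (background 2.78%), each of them higher in ArA libraries: EPAS1, CA12, SLC2A3, P4HA2, ADM and NDRG1. That is 6 of 39 beside 2.28% of all tested genes for higher genes, with 0 members lower beside 0.508%. In 7 of 39 (17.9%) the 3 ArA libraries all lay above the 3 control libraries, beside 6.84% of all genes, and in 0 they all lay below, beside 1.21%. The 7 were EPAS1, SLC2A3, PFKM, VEGFA, CA12, ADM and P4HA2. Positive log2 differences were found for 36 of 39 members, beside 68.9% of all genes, and 25 lay above the median of all genes, beside 50%. In bulk RNA, fewer cells that express a gene and less RNA per cell cannot be told apart. The counts depended on the scaling. With median-of-ratios scaling, quantile normalization or TPM rescaled without mitochondrially encoded genes, 22, 25 and 21 of 39 members had positive differences. The median of all genes was then 0.003, 0.005 and -0.002, and 21, 25 and 21 members lay above it, beside 50%. Only EPAS1 kept an unadjusted limma p under 0.05, beside 2.05, 2.21 and 2.13% of all genes. Under each scaling 4 members separated the groups, beside 2.93, 3.02 and 3.36% of all genes. EPAS1 and VEGFA did so under all 3 of these scalings, CA12 and SLC2A3 under 2, ADM and PFKM under 1, and P4HA2 under none. After GC correction the groups of SLC2A3, ADM and P4HA2 overlapped, and those of the other 4 did not.

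**Figure D1:**
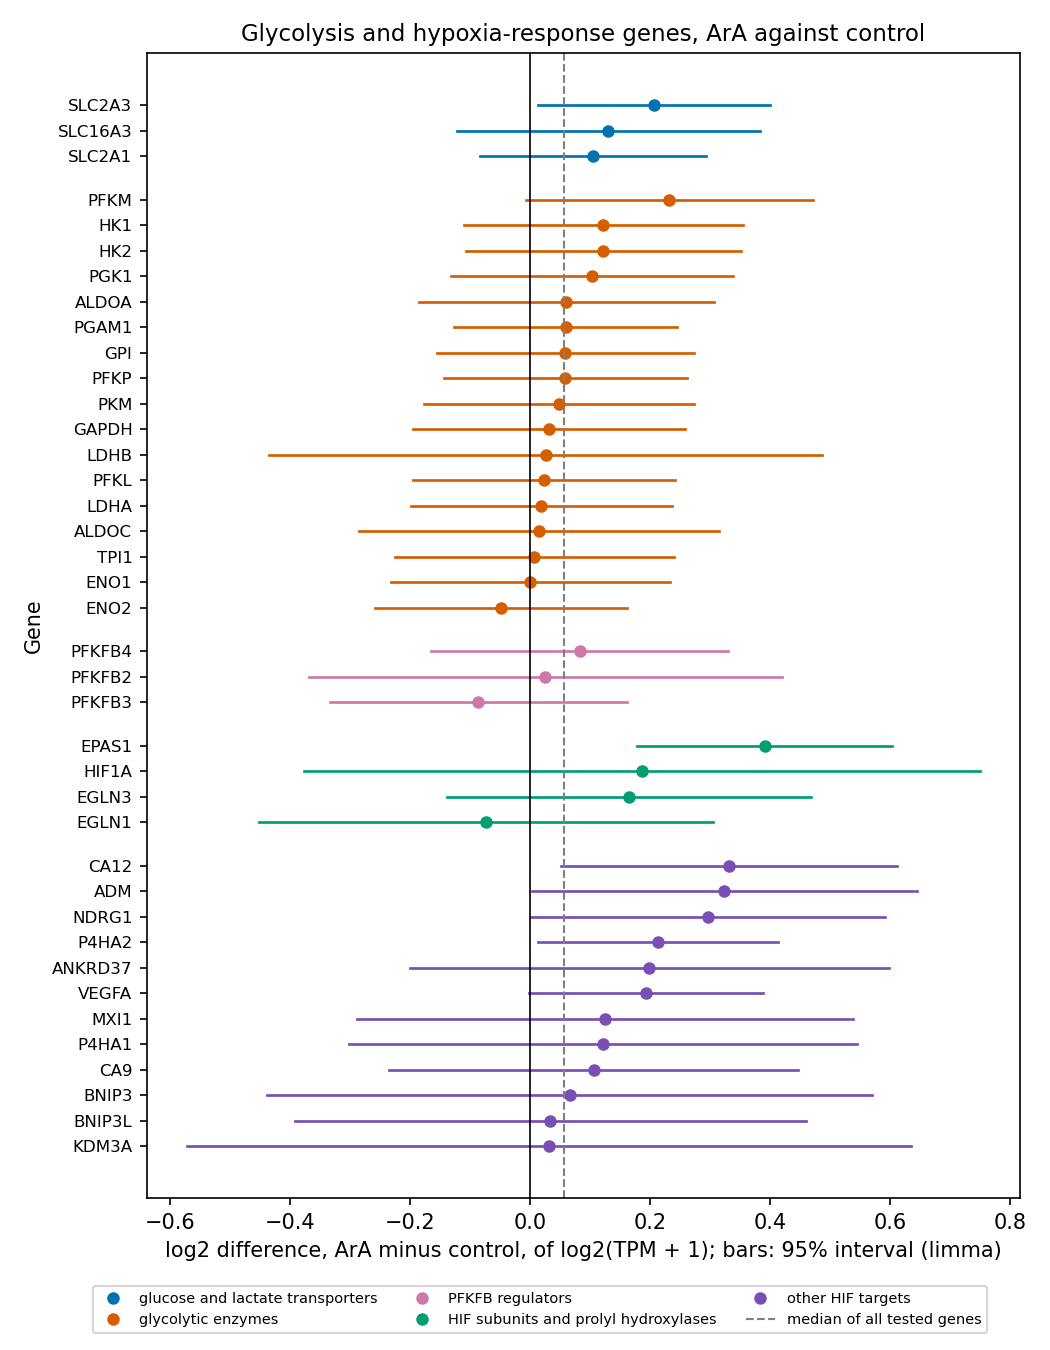
Log2 difference (ArA minus control, in log2(TPM + 1)) on the horizontal axis for the 39 tested genes, coloured by role; points are limma estimates, bars their 95% intervals, and the dashed line the median of all tested genes (0.06). The 17 enzymes lie around the dashed line, from -0.05 for ENO2 to 0.23 for PFKM, and EPAS1 has the highest estimate of all, 0.39.

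Among the HIF system genes, EPAS1 had the clearest difference of the 39. It codes for the alpha subunit of HIF-2, the paralogue of the HIF1A product, and had 16.29, 16.17 and 16.40 TPM in control replicates 1, 2 and 3 and 21.21, 21.59 and 22.21 TPM in ArA replicates 1, 2 and 3. The control values were nearly the same, and each ArA library lay well above all of them. The ratio of means was 1.33, and the log2 difference was 0.39 (SE 0.09, 95% interval 0.18 to 0.60, limma unadjusted p = 0.00325, adjusted p = 0.999). EPAS1 lay 0.33 above the median of all genes, and its groups stayed separated under the 3 other scalings and after GC correction. The remaining alternatives could not undo a separation, as they keep the order of a gene's library values or leave libraries out. Among all 20 processing alternatives EPAS1 had log2 differences from 0.33 to 0.41. Its adjusted p ranged from 0.0327, with array weights, to 1. EPAS1 (ENSG00000116016) is protein-coding and lies at chr2:46293667-46386703, forward strand (GENCODE v29 on hg38), and no other gene with a mean of at least 1 TPM overlaps it.

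HIF1A, the other alpha subunit gene, was more abundant and far more variable. Control replicates 1, 2 and 3 had 104.86, 59.92 and 101.41 TPM and ArA replicates 1, 2 and 3 had 78.82, 103.78 and 115.45 TPM. The lowest library of each group was one of those that stand apart by GC content, and the HIF1A transcript was the poorest in GC of the 39, at 36.4%. Its log2 difference was 0.19 (95% interval -0.38 to 0.75), which spans folds from 0.770 to 1.68. After the trend with GC content had been removed the 3 ArA values all lay above the 3 control values, with a log2 difference of 0.18 (SE 0.07, limma unadjusted p = 0.0350, adjusted p = 1.00). Without control replicate 2 alone the difference was -0.07, and without both control replicate 2 and ArA replicate 1 it was 0.09 with overlapping groups. The share of EPAS1 in the summed TPM of HIF1A and EPAS1 was 16.2 ± 4.38% in control and 18.2 ± 2.67% in ArA libraries (SD, n = 3 each), and the groups overlapped. An antisense transcript at the HIF1A locus, HIF1A-AS3 in the table, had 2.17 ± 1.03 and 1.52 ± 0.474 TPM, and whether counting used strand is not given in the sources used here.

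Neither oxygen-sensing hydroxylase gene separated the groups. EGLN1, the main hydroxylase of HIF alpha in most cells, had control values of 19.55, 14.04 and 21.28 TPM and ArA values of 16.90, 16.34 and 18.05 TPM, so the ArA values sat inside the control range. EGLN3, itself a hypoxia-induced gene, had control values of 6.69, 6.83 and 8.11 TPM and ArA values of 8.80, 7.50 and 8.27 TPM, with an overlap between the groups. The log2 differences were -0.07 (95% interval -0.45 to 0.30) and 0.16 (95% interval -0.14 to 0.47). EGLN3 made up 28.6 ± 3.72% of the summed TPM of EGLN1 and EGLN3 in control and 32.4 ± 1.62% in ArA libraries (SD, n = 3 each).

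Of the 12 other HIF targets, all had positive log2 differences and 10 lay above the median of all genes, with a list median of 0.16. The same measure was positive for 8956 of 12999 genes. CA12, a membrane carbonic anhydrase that acts on pH outside the cell, had control values of 33.78, 27.31 and 25.71 TPM and ArA values of 35.91, 36.59 and 36.73 TPM. Its ArA values were tight and the control values broad, with control replicate 1 close to the ArA range. The log2 difference was 0.33 (SE 0.12, limma unadjusted p = 0.0265). CA9, the related enzyme that is often used as a hypoxia marker, was the least abundant tested member with control values of 2.60, 3.01 and 2.97 TPM and ArA values of 3.60, 3.04 and 2.84 TPM. Its groups overlapped, and the log2 difference was 0.11 (95% interval -0.24 to 0.45).

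VEGFA, the vascular growth factor, had control values of 53.44, 50.66 and 55.96 TPM and ArA values of 59.00, 62.57 and 61.76 TPM. The groups did not overlap here, under the 3 other scalings or after GC correction, the only alternatives that could have undone a separation. The log2 difference was 0.19 (95% interval -0.0021 to 0.39, limma unadjusted p = 0.0520) and 0.13 under each of the 3 other scalings. ADM, the vasodilator peptide adrenomedullin, had control values of 14.15, 13.84 and 12.67 TPM and ArA values of 14.30, 19.03 and 18.65 TPM. ArA replicate 1 exceeded the highest control library by little, and the other 2 ArA libraries lay well above; the log2 difference was 0.32 (SE 0.14, limma unadjusted p = 0.0483) with all libraries and 0.46 without control replicate 2 and ArA replicate 1.

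P4HA2, a collagen prolyl hydroxylase, had control values of 69.93, 74.67 and 65.79 TPM and ArA values of 84.82, 79.41 and 79.92 TPM, with no overlap and a log2 difference of 0.21 (SE 0.09, limma unadjusted p = 0.0400). Its groups overlapped under the 3 other scalings and after GC correction, with log2 differences of 0.15 to 0.16. Its sister gene P4HA1 did overlap, with control values of 90.63, 57.89 and 77.16 TPM and ArA values of 68.48, 85.77 and 88.89 TPM. The lowest P4HA1 value in each group was again control replicate 2 and ArA replicate 1, and its transcript has a GC content of 40.8% against 49.1% for P4HA2. P4HA2 shares its locus with PDLIM4 on the opposite strand, which had 35.3 ± 2.09 and 37.2 ± 4.58 TPM (SD, n = 3 each), and reads may not be separated.

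NDRG1, a stress-responsive gene and the most abundant of these targets, had control values of 150.48, 200.95 and 162.83 TPM and ArA values of 210.49, 191.70 and 226.68 TPM. Control replicate 2 lay inside the ArA range; the log2 difference was 0.30 (SE 0.13, limma unadjusted p = 0.0495) and 0.42 without that library. ANKRD37, a small ankyrin-repeat gene used in hypoxia signatures, had control values of 6.76, 6.11 and 8.36 TPM and ArA values of 6.85, 8.22 and 9.78 TPM. The groups overlapped, and the log2 difference was 0.20 (95% interval -0.20 to 0.60).

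The remaining targets showed more spread than difference. The mitophagy receptor gene BNIP3 had control values of 88.26, 50.72 and 84.29 TPM and ArA values of 66.41, 79.82 and 81.84 TPM, and its paralogue BNIP3L had means of 14.7 and 15.2 TPM. KDM3A, a histone demethylase gene, had 9.06 ± 3.04 and 9.06 ± 1.88 TPM, and MXI1, which codes for a MYC antagonist, had 9.39 ± 1.64 and 10.3 ± 1.75 TPM (SD, n = 3 each). The 95% intervals for BNIP3 and KDM3A, -0.44 to 0.57 and -0.57 to 0.64, do not bound either gene closely.

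**Figure D2:**
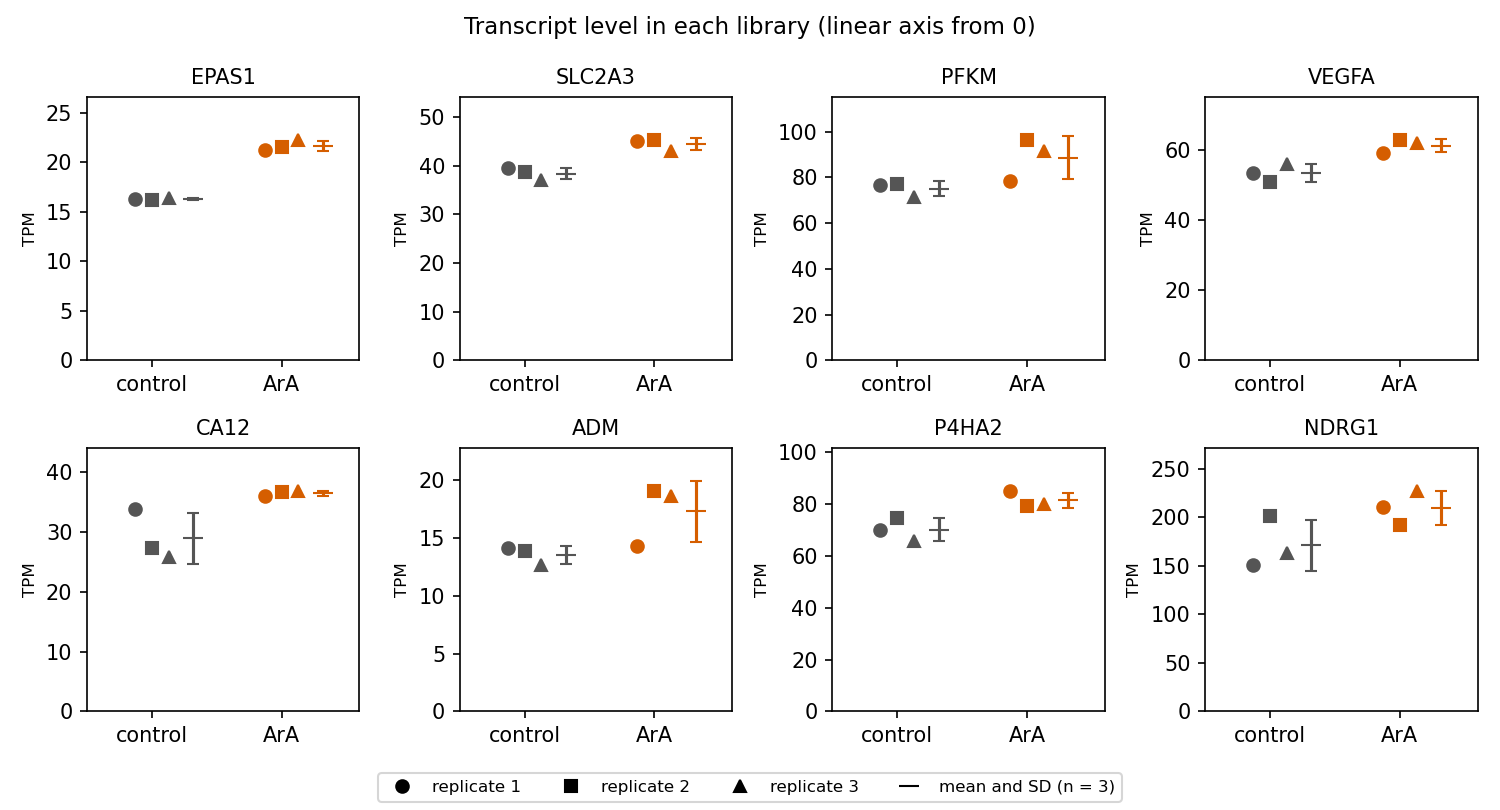
TPM in each library on linear axes from 0 for the 7 genes whose groups did not overlap and for NDRG1, with control in grey and ArA in orange; bars give mean and SD (n = 3). The EPAS1 groups lie far apart for their spread, while ADM and PFKM separate only by the small step between ArA replicate 1 and the highest control library.

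Glycolytic enzymes were abundant and near the median of all genes. The 17 enzymes together held 1.28, 1.52 and 1.41% of all transcripts in control replicates 1, 2 and 3 and 1.45, 1.42 and 1.42% in ArA replicates 1, 2 and 3. All ArA values lay inside the control range. GAPDH was the most abundant, with control values of 3907.73, 4874.17 and 4469.93 TPM and ArA values of 4671.66, 4403.80 and 4416.68 TPM, again inside the control range. ENO1, the main enolase gene, followed at 2263 ± 262 TPM without and 2255 ± 98.3 TPM with ArA, and PKM, the pyruvate kinase gene, at 1945 ± 224 and 2002 ± 54.0 TPM (SD, n = 3 each). The order of levels between these 3 was the same in each of the 6 libraries. Their log2 differences were 0.03, 0.00 and 0.05, with 95% intervals reaching from -0.23 to 0.27 over the 3.

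At the entry step, HK1, the housekeeping hexokinase, had control values of 116.97, 146.31 and 126.83 TPM and ArA values of 142.54, 142.67 and 137.85 TPM. HK2, the inducible hexokinase and a classical HIF target, had control values of 33.10, 31.57 and 31.54 TPM and ArA values of 31.86, 35.73 and 37.59 TPM. Both pairs of groups overlapped, both log2 differences were 0.12, and HK2 made up 19.9 ± 2.15% of the summed TPM of HK1 and HK2 in control and 19.9 ± 1.58% in ArA libraries (SD, n = 3 each). Without control replicate 2, which had the highest HK1 value, the log2 difference of HK1 was 0.21.

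Among the 17 enzymes, 1 (5.88%) had all 3 ArA libraries above all 3 control libraries, beside 6.84% of all tested genes. That gene, PFKM, codes for a form of phosphofructokinase, the committed step. PFKM had control values of 76.76, 77.34 and 71.25 TPM and ArA values of 78.25, 96.17 and 91.55 TPM. ArA replicate 1 stood less than 1 TPM above control replicate 2, so the groups separate by a narrow step, and the size of the difference comes from the other 2 ArA libraries. The log2 difference was 0.23 (SE 0.10, limma unadjusted p = 0.0558), and 0.34 without control replicate 2 and ArA replicate 1. PFKM took 26.7 ± 1.46% of the summed TPM of the 3 phosphofructokinase genes in control and 29.2 ± 2.75% in ArA libraries, and PFKP, the platelet form and the most abundant here, 59.7 ± 1.15% and 57.9 ± 2.40% (SD, n = 3 each), with overlap in both. PFKL, the liver form, had a log2 difference of 0.02. SENP1, which overlaps PFKM on the opposite strand, had 4.85 ± 0.861 and 4.86 ± 0.723 TPM.

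In the middle steps, GPI, which converts the sugar phosphate made by hexokinase, averaged 197 ± 17.8 TPM without and 205 ± 8.51 TPM with ArA. The aldolase gene ALDOA had 945 ± 110 and 982 ± 68.8 TPM and its neuronal relative ALDOC 94.4 ± 16.1 and 94.6 ± 4.76 TPM (SD, n = 3 each). A gene without a symbol that overlaps ALDOA on the same strand had 107 ± 16.3 TPM without and 105 ± 10.1 TPM with ArA. TPI1, the triose phosphate isomerase gene, had nearly equal means of 918.3 ± 110 TPM without and 918.5 ± 26.6 TPM with ArA, and a log2 difference of 0.01 (95% interval -0.23 to 0.24). PGK1, the first ATP-making step, had 372 ± 44.6 and 398 ± 15.4 TPM, and PGAM1, the mutase that follows, 751 ± 49.7 and 781 ± 31.6 TPM. ENO2, the neuronal enolase, was the enzyme gene with a negative log2 difference, -0.05, at 71.2 ± 4.57 and 68.8 ± 3.55 TPM. After GC correction its difference was -0.11 and the ArA values all lay below the control values (limma unadjusted p = 0.132).

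The lactate dehydrogenase genes followed the libraries more than the groups. LDHA, whose enzyme favours lactate formation, had control values of 1106.34, 983.04 and 1165.10 TPM and ArA values of 1015.48, 1130.42 and 1147.63 TPM. LDHB had control values of 584.43, 416.54 and 589.11 TPM and ArA values of 414.52, 577.42 and 632.52 TPM. Control replicate 2 and ArA replicate 1 were the lowest for both genes, and for LDHB these 2 libraries were at -0.49 and -0.54 on the log2 scale from the mean of the other 2 of their group. The share of LDHA in the sum of both was 67.4 ± 2.54% in control and 67.2 ± 3.39% with ArA (SD, n = 3 each). The log2 differences were 0.02 (95% interval -0.20 to 0.24) for LDHA and 0.03 (95% interval -0.44 to 0.49) for LDHB. Over the 17 enzymes the 95% intervals reached from a fold of 0.740 to one of 1.40.

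The transporters were led by SLC2A3, which codes for the glucose transporter GLUT3. It had control values of 39.44, 38.61 and 37.06 TPM and ArA values of 45.06, 45.17 and 43.09 TPM, with no overlap and a log2 difference of 0.21 (SE 0.08, limma unadjusted p = 0.0391). Under the 3 other scalings the difference was 0.14 to 0.15. SLC2A1, which codes for the more abundant transporter GLUT1, had control values of 174.56, 176.63 and 163.07 TPM and ArA values of 196.04, 182.29 and 175.02 TPM, and ArA replicate 3 lay inside the control range; the log2 difference was 0.10 (95% interval -0.08 to 0.29). As a share of the summed TPM of both genes, which no rescaling of a library can alter, SLC2A3 took 18.43, 17.94 and 18.52% in control and 18.69, 19.86 and 19.76% in ArA libraries. Of 11 isozyme or paralogue shares, only this 1 had groups that did not overlap, with ArA replicate 1 nearest to control. By their own TPM, 8.05% of all tested genes separated the groups in either direction. The share was not GC-corrected, and the GC content is 45.8% for SLC2A3 and 54.8% for SLC2A1. SLC16A3, the HIF-induced lactate exporter MCT4, had control values of 291.60, 266.84 and 256.88 TPM and ArA values of 329.92, 305.57 and 260.15 TPM, which overlapped, and made up 99.8 to 99.9% of the summed TPM of SLC16A1 and SLC16A3 in each library.

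The PFKFB genes, whose enzymes make and remove the activator of phosphofructokinase, showed no separated groups. PFKFB4 had control values of 25.94, 28.35 and 31.46 TPM and ArA values of 28.75, 30.28 and 31.75 TPM. PFKFB3, the inducible form, had control values of 23.69, 19.61 and 21.47 TPM and ArA values of 19.63, 20.77 and 20.27 TPM, all inside the control range. PFKFB2 averaged 4.10 ± 0.733 TPM without and 4.17 ± 0.567 TPM with ArA (SD, n = 3 each). PFKFB3 had the lowest log2 difference of all 39 members, -0.09 (95% interval -0.33 to 0.16), and lay below the median of all genes in each of the 20 alternatives.

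The summed TPM of the 12 other HIF targets was 546, 511 and 533 in control replicates 1, 2 and 3 and 577, 603 and 647 in ArA replicates 1, 2 and 3, with no overlap. NDRG1, whose own groups overlapped, gave the largest part of each sum. The mean log2(TPM + 1) of the 12 targets, which gives each gene equal weight, overlapped between the groups. It was 4.75, 4.53 and 4.74 in control replicates 1, 2 and 3 and 4.71, 4.88 and 4.94 in ArA replicates 1, 2 and 3. Glycolytic enzymes and other HIF targets were also set against each other. Less the median of all genes, the median log2 difference was -0.0088 for the enzymes, of which 8 of 17 lay above that median, and 0.10 for the targets, of which 10 of 12 did. Both counts moved with the libraries used. Without control replicate 2, 14 enzymes and 7 targets lay above the median, and without control replicate 1, 3 enzymes and 11 targets did. The mean log2(TPM + 1) of the enzymes exceeded that of the targets by 3.54, 3.94 and 3.64 in control replicates 1, 2 and 3 and by 3.70, 3.57 and 3.51 in ArA replicates 1, 2 and 3. The groups overlapped, and the difference of the group means of this gap, -0.11, compares with an SD of 0.21 among the control and 0.10 among the ArA libraries. The difference of the list medians was -0.11, and it was -0.01 without control replicate 2, -0.22 without control replicate 1, -0.20 without ArA replicate 1 and -0.07 without both control replicate 2 and ArA replicate 1. It was the enzymes' value that moved, to 0.10, -0.09, -0.09 and 0.02 in those fits, and it was -0.03 without control replicate 3, 0.01 without ArA replicate 2 and 0.02 without ArA replicate 3. The targets' value stayed between 0.09 and 0.14 in all 20 alternatives. Of these, the replicate block and the 2 eBayes options cannot change a log2 difference. No p is given for these lists, whose members were chosen with earlier results known.

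**Figure D3:**
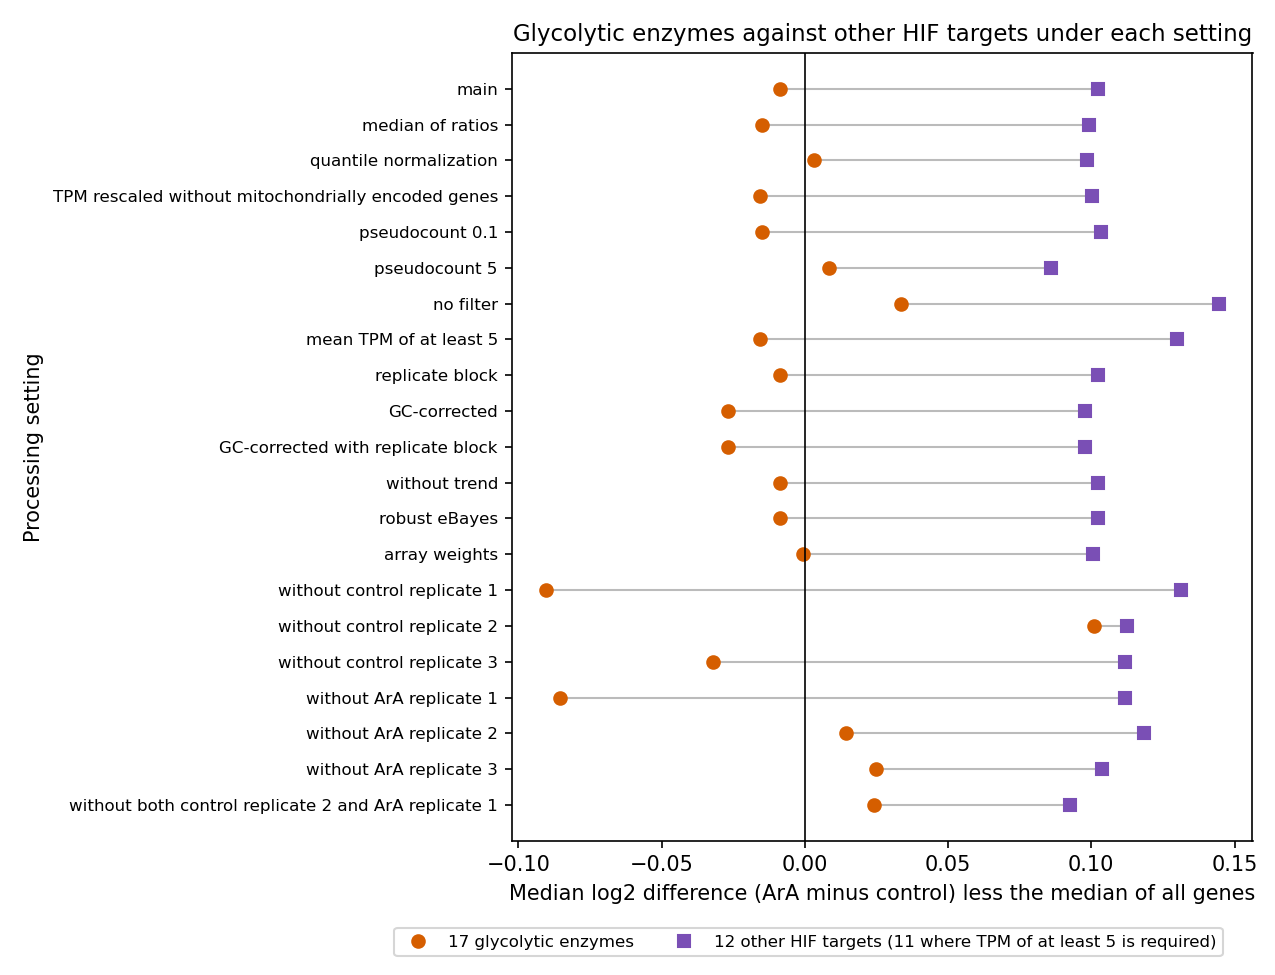
Median log2 difference less the median of all genes (horizontal axis) for the glycolytic enzymes (circles) and the other HIF targets (squares) under the main analysis and 20 alternatives (vertical axis). The squares stay between 0.09 and 0.14, while the circles range from -0.09 to 0.10 and nearly meet the square without control replicate 2.

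The lists also differ in base composition, which moved with the libraries that stand apart. The median GC content of the longest transcript was 53.1% for the enzymes and 49.7% for the other targets, against 48.3% for all tested genes. Control replicate 2 was above the mean of control replicates 1 and 3 for 14 of 17 enzymes and for 4 of 12 targets, and ArA replicate 1 was above the mean of ArA replicates 2 and 3 for 10 and 3. Over all tested genes these libraries were above for 4938 and 3339 of 12637, so the counts for the targets sit near the background. Across the 39 genes, which share the 6 libraries and are not independent, the correlation of this deviation with GC content was 0.64 for control replicate 2 and 0.67 for ArA replicate 1, and the 2 deviations correlated at 0.72. Over 12637 tested genes the same 3 values were 0.50, 0.41 and 0.38. KDM3A, BNIP3 and HIF1A deviated by -0.78, -0.75 and -0.77 in control replicate 2, on the log2 scale, and BNIP3 has a GC content of 51.4%, close to the median of the members. After GC correction the difference of the list medians was -0.12.

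**Figure D4:**
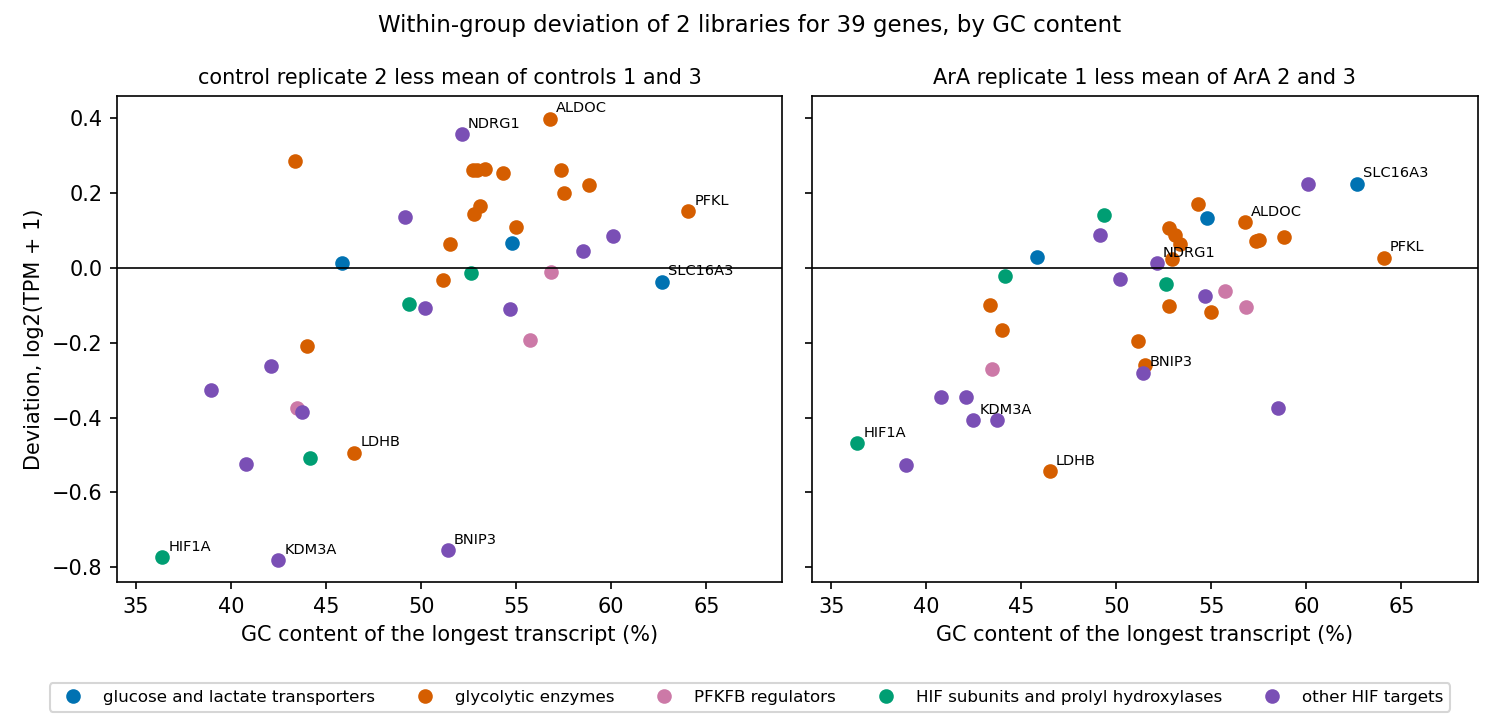
Deviation in log2(TPM + 1) of control replicate 2 (left) and ArA replicate 1 (right) from the mean of the other 2 libraries of the group, against GC content of the longest transcript in percent, for the 39 tested genes coloured by role. HIF1A and KDM3A, both poor in GC, lie below 0 in both panels, while PGK1, at 43.3%, lies above 0 on the left, as do 14 of 17 enzymes.

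The promoters of these genes were searched for the core of the hypoxia response element, the site that HIF binds, because it is the feature that enzymes and other targets are meant to share. The search covered the 250 bases upstream of each RefSeq start on GRCh38.p14 for ACGTG on either strand (CACGT is its reverse complement, and the E-box CACGTG holds it on both strands). Windows were found for 34 of 40 members, and not for SLC2A3, SLC16A1, PFKFB2, VEGFA, NDRG1 and BNIP3L. ACGTG stood in at least 1 window of 19 of these 34 genes, against 21.7% of the 27305 genes with a window, and in 22 of 63 windows (34.9%) against 18.5% of all windows. By role it was found for 11 of 17 enzymes, 5 of 9 other targets and 1 of 4 HIF system genes. Base composition was not matched, genes with several starts have more windows, and a match is a run of letters, not a bound site. The following 30-base stretches, read 5′ to 3′ on the strand of the gene with the core in capitals, show it in 3 enzyme genes and 3 other targets.
HK2: aatgggcgtgcgCACGTcactgatccggag
PGK1: gcggcgtgccggACGTGacaaacggaagcc
ENO2: acccgcgctcgtACGTGcgcctccgccggc
CA9: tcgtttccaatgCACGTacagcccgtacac
ANKRD37: cagtgtttgtgtACGTGcggccgtggcggg
P4HA1: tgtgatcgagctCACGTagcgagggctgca
These lie at chr2:74834067-74834096, chrX:78104034-78104063, chr12:6914450-6914479, chr9:35673898-35673927, chr4:185396686-185396715 and chr10:73096935-73096964, the last on the reverse strand and the others on the forward strand. The last base of the core lies 14 bases before the start of CA9 and 44 bases before that of HK2. The 6 genes carry the same 5 letters and had log2 differences from -0.05 for ENO2 to 0.20 for ANKRD37, none past the adjusted threshold.

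Further genes of the same pathways, which are not members, numbered 83, and 63 were tested. Only ANGPTL4, a secreted lipase inhibitor that HIF and lipid-sensing receptors both induce, passed: it rose from 19.98, 19.45 and 17.45 TPM to 65.76, 60.32 and 56.14 TPM (limma adjusted p = 0.00538), a log2 difference of 1.63. The adjusted p was 0.0618 without control replicate 1, 0.112 without ArA replicate 2 and 0.220 with the replicate block, the highest of the alternatives; the lowest was 4.4e-05. That is 1 of 63 higher and 0 lower, beside 0.0154% and 0.00769% of all genes. Of 38 tested HIF pathway and target genes, 32 had positive log2 differences, beside 68.9% of all genes. Of the same 38, 28 lay above the median of all genes, beside 50%, and the list median less that of all genes was 0.07. Of 25 tested genes of glucose handling, 19 were positive and 15 lay above the median of all genes, beside the same shares, and the list median less that of all genes was 0.01. Besides ANGPTL4, ENO3, ADPGK and BHLHE40 were among the genes with the smallest p. ENO3, the muscle enolase, had control values of 9.36, 7.93 and 10.86 TPM and ArA values of 6.29, 7.11 and 6.51 TPM, all lower than control, with a log2 difference of -0.44 (SE 0.14, limma unadjusted p = 0.0177). ADPGK, an ADP-dependent glucokinase, averaged 63.8 ± 5.38 TPM without and 76.1 ± 2.52 TPM with ArA, and BHLHE40, a hypoxia-responsive repressor, 51.0 ± 0.895 and 59.3 ± 3.72 TPM (SD, n = 3 each). Both were separated upward with unadjusted limma p-values of 0.0277 and 0.0406, and neither passed after adjustment.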

How the data were processed

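RNA-seq of 6 libraries was deposited by the authors as a table of TPM values, with 1 column per library matched to its sample by name. The submitters' processing notes list HISAT2, StringTie, RSEM and hg38 without roles or versions, and no source used here gives the annotation or strand setting. After 50 lines that name no gene were left out, 63241 genes remained. Genes that averaged 1 TPM or more were put on the log2(TPM + 1) scale (pseudocount 1, which understates the change of low genes), and limma 3.58.1 (R 4.3.3) was run on them (trend, group as the only term, 2-sided), with Benjamini-Hochberg adjustment over 12999 genes and a threshold of 0.05. The code was tested on simulated data. Ratios of means are ratios of mean TPM, while fold intervals are the limma 95% intervals in log2(TPM + 1) taken off the log scale. GC content and positions came from GENCODE v29 by gene identifier, and promoter sequences from RefSeq (GRCh38.p14). Same-named pseudogenes of the members held at most 0.946% of a member's TPM, and 18 members overlap another gene of at least 1 TPM.

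Members and lists were chosen with earlier results of these data known. Values in every library are given for the members with the smallest p and the highest level in each role and for a fixed set of transporters, isozymes, HIF genes and targets; of the further genes, those past the threshold and the 4 with the smallest p were to be named, of which 1 is not reported here. BNIP3 and P4HA1 were added to those given by library after their values had been seen. Alternatives were 3 scalings, pseudocounts of 0.1 and 5, no filter, a minimum mean of 5 TPM, the replicate block, GC correction (natural spline, 5 degrees of freedom) with and without the block, 2 eBayes options, array weights, and libraries left out.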

Additional observations from a re-analysis of the deposited data

How the results depend on the processing

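Of the 39 tested members, 0 passed in 19 of the 20 alternatives; with array weights 4 did (EPAS1, CA12, ADM and PFKM), where 24.5% of all genes had an unadjusted p under 0.05 and 214 passed. The number of all genes that passed was 0 with the replicate block, 5 after GC correction, 12 without both control replicate 2 and ArA replicate 1, and 0 to 7 when 1 library was left out (0 without control replicate 1 or ArA replicate 2, 7 without control replicate 2 or ArA replicate 1). Of the further pathway genes, 0 passed with the replicate block, 5 with array weights and 0 to 1 with 1 library left out. The enzymes' median less that of all genes ranged from -0.0903 to 0.101 with 1 library left out, the upper end being without control replicate 2; the cause was not tested. With the replicate block, 2 members had an unadjusted limma p under 0.05, CA12 and EPAS1, beside 1.78% of all genes. Without it there were 6, beside 2.78%. The labels do not say that a number marks a shared culture, so the numbers were not taken as pairs. Deviations of same-numbered libraries correlated at -0.16, -0.28 and 0.11, and those of control replicate 2 and ArA replicate 1 at 0.29. Because deviations within a group of 3 sum to 0 for each gene, these values cannot decide whether numbers mark pairs. The sign of the log2 difference changed in at least 1 alternative for 22 members and in none for 17. Among the alternatives that leave out 1 library, 1 to 5 members had an unadjusted limma p under 0.05, EPAS1 in each. The share of all genes was 1.65 to 5.54%, highest without control replicate 2, where the 5 members were found. Depth is unknown, so the precision of low genes such as CA9 and PFKFB2 is known only from replicates.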
